A study of Mus musculus with 48 samples.

Results

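Chemokines are small secreted proteins that guide leukocytes along concentration gradients, and they act on G protein-coupled receptors on the target cell. CXC ligands that attract neutrophils bind Cxcr2, and interferon-inducible CXC ligands bind Cxcr3. Monocyte-attracting CC ligands such as Ccl2 bind Ccr2, and atypical receptors take up ligands without classical signaling. In liver, hepatocytes, Kupffer cells, endothelium and stellate cells all make chemokines, and several of their genes are induced through NF-kB or interferon after tissue injury.

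The genes described are the 42 of 20702 in the authors' iris-corrected expression table whose symbol names a CC, CXC or CX3C ligand or receptor, or an atypical chemokine receptor (Ackr). The set holds 28 ligands and 14 receptors, all annotated as protein coding, and was chosen by name among the genes that reach the expression limit of that table. In the full count table of 46517 genes, 61 symbols fit the same rule, and the other 19 lie below the limit of the corrected table, a mean of 1 TPM (transcript abundance scaled for gene length and sequencing depth) over corrected explants, livers, hepatocytes and spheroids. Just inside that limit were Ccr8 with a mean of 1.00, Cxcl17 with 1.396 and Ackr1 with 1.45, and just outside were Cxcl11 with 0.929, Ccr9 with 0.703 and Ccl28 with 0.647. On GRCm38, 11 members lie on chromosome 11, of which 10 are ligands, 7 ligands lie on chromosome 5, and 8 receptors lie on chromosome 9.

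The samples were sequenced in bulk by Smart-seq3, 16 in 5 groups, each as 3 technical libraries that were summed. The 5 explants, numbered 1, 2, 4, 5 and 6, are liver spheroids that had engrafted in the anterior chamber of the eye (ACE) and were collected along with the surrounding iris at 2 months post-tx. The other groups are 3 irises that carried no graft, 3 endogenous livers of donor mice, 3 preparations of primary hepatocytes isolated and enriched from donor liver, and 2 samples of spheroids formed from such hepatocytes and kept in vitro. According to the labels every group is WT Albino of strain C57BL/6N; the methods describe adult mice of both sexes and list albino mice of another substrain, so the substrain is uncertain. Nothing in the labels ties samples to separate animals or cultures, and p-values measure the spread between these samples, which may be partly technical.

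An explant is a mixture, and in the deposited correction iris accounts for 82%, 68%, 81%, 72% and 59% of explants 1, 2, 4, 5 and 6. In such bulk samples, fewer cells of a type and less RNA per cell cannot be told apart. Total counts per sample ran from 2718518 to 6789648, and the members took between 1796 counts, in spheroids 2, and 8664, in explant 6. Summed markers of hepatocytes (7 genes) were 4657 to 5999 TPM in explants, 1377 to 1635 in irises, 9159 to 9668 in livers, 9627 to 11788 in hepatocyte preparations and 10073 to 10691 in spheroids, so irises were not free of them. Iris and pigment epithelium markers (7 genes) were 6272 to 7942 TPM in explants, 8724 to 9135 in irises and 436 to 593 in the other 3 groups. Liver 1 stood apart from the other livers: it was the highest of the 3 for 29 of the 42 members, and its T cell markers summed to 114 TPM against 16.9 and 13.4. The 2 spheroid samples also differed from each other, with 683 and 374 TPM summed over the 28 ligands.

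**Figure D1:**
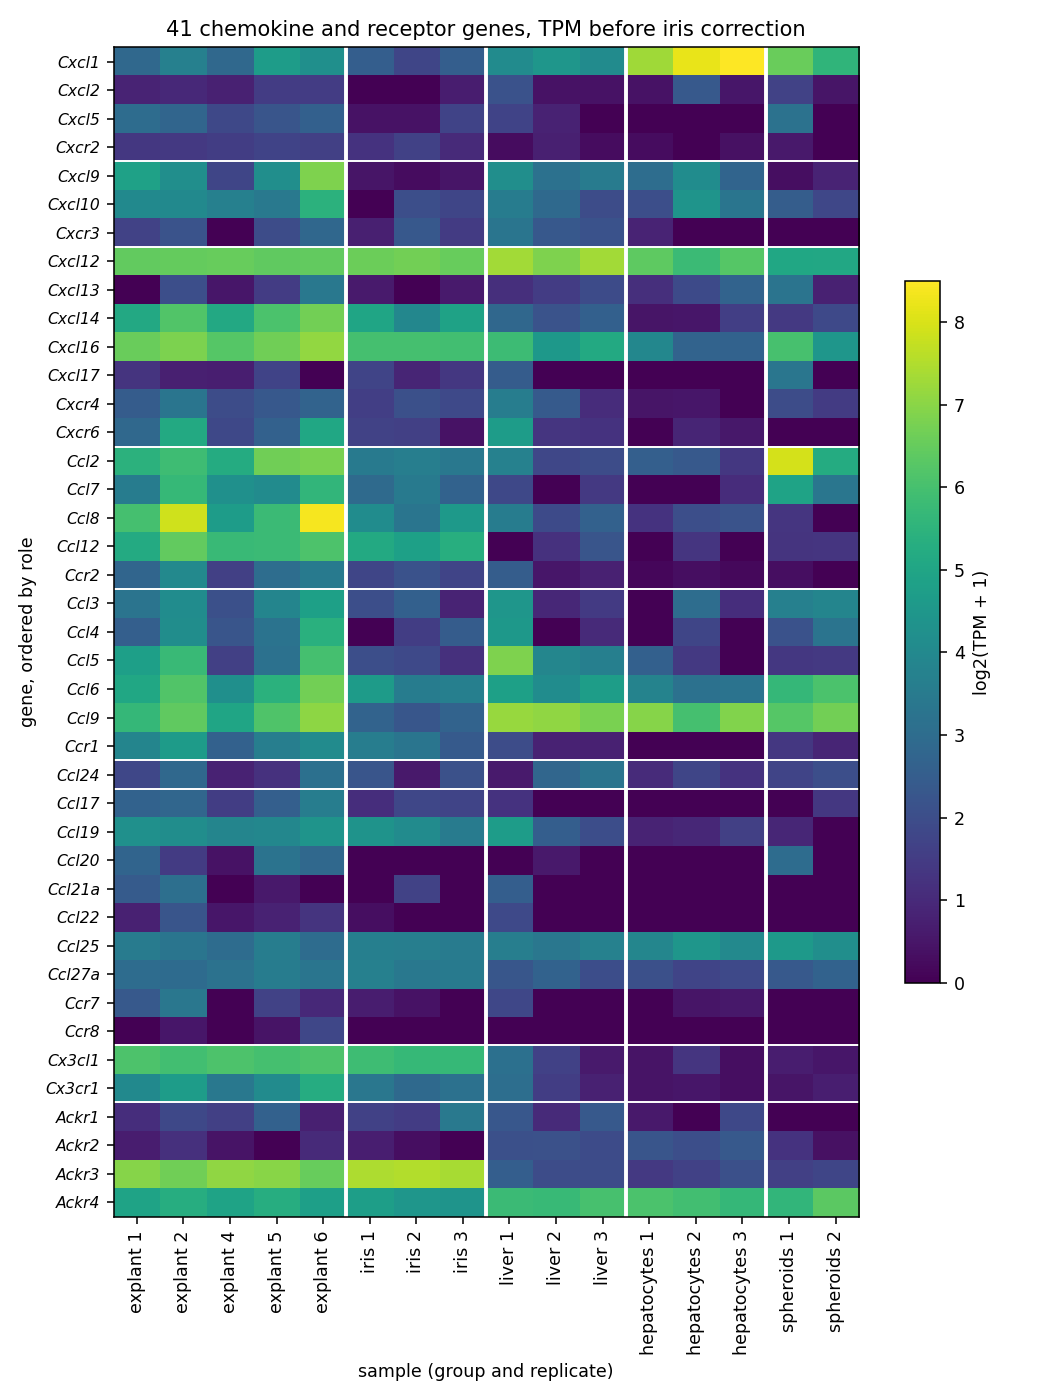
Level of 41 of the genes (rows, ordered by role, white lines between roles) in each of the 16 samples (columns, white lines between groups), as log2(TPM + 1) before iris correction, from dark (0) to yellow (highest). Cxcl1 is brightest in the 3 hepatocyte preparations, Ackr3 and Cx3cl1 are bright in explants and irises alike, and Ccl8 is brightest in explants 2 and 6.

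The leading chemokine genes differed from group to group. By mean TPM, the 5 highest members were Ccl8, Ackr3, Cxcl16, Cxcl12 and Ccl9 in explants, Ackr3, Cxcl12, Cxcl16, Cx3cl1 and Ccl12 in irises, Cxcl12, Ccl9, Ackr4, Ccl5 and Cxcl16 in livers, Cxcl1, Ccl9, Cxcl12, Ackr4 and Ccl25 in hepatocyte preparations, and Ccl2, Ccl9, Cxcl1, Ackr4 and Ccl6 in spheroids. A count was found for 38 to 42 members per explant, 36 or 37 per iris, 34 to 39 per liver, 28 to 30 per hepatocyte preparation, and 34 and 28 in the spheroids. Depth differed in the same direction, with total counts of 5449589 to 6789648 in explants and 4596550 to 4881817 in irises. Livers, hepatocytes and spheroids had 2718518 to 3871404. The limit that chose the members also counted explants, so these numbers do not compare how many chemokine genes each group expresses. Ligands summed to between 517 TPM (explant 4) and 1577 TPM (explant 6) in explants, against 361 to 407 in irises, 379 to 687 in livers and 429 to 617 in hepatocytes.

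Promoters are shown for ligands on which the comparisons turn, Cxcl1 for isolated hepatocytes and Cxcl9 and Cxcl10 for explants. Each is shown as the 250 bases before the RefSeq start (GRCm38.p6), 5′ to 3′ on the gene's strand, with matches to the NF-kB motif GGGNNNNNCC on either strand in capitals. They lie at chr5:90890995-90891244 (plus strand, Cxcl1), chr5:92328080-92328329 (minus strand, Cxcl9) and chr5:92348890-92349139 (minus strand, Cxcl10).
Cxcl1: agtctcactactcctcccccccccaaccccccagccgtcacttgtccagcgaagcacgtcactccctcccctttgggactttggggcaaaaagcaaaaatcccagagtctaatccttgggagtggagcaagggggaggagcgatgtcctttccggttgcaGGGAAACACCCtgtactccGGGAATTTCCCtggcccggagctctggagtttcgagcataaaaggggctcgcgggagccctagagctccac
Cxcl9: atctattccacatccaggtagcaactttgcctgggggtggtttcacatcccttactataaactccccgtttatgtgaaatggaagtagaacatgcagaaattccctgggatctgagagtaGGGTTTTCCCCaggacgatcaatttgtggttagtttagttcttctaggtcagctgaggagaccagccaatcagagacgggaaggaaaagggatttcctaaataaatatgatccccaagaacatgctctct
Cxcl10: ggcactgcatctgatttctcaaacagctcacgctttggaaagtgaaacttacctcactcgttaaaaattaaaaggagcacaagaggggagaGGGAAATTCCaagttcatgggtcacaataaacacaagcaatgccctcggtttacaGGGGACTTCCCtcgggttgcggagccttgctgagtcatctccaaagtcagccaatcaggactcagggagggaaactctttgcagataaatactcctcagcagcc

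Cxcl1 and Cxcl10 each hold 2 runs of capitals and Cxcl9 holds 1. Matches on both strands overlap within each run except the first of Cxcl10, which matches on 1 strand. A match of these letters is common: 45.8% of 32851 mouse promoters of that length hold one, and so do 18 of the 32 members with an entry. The AP-1 motif TGANTCA was found in 6.75% of all promoters, and in Cxcl10, Ccl9 and Ccl27a among members. Among the members with no entry are Ccl2, Ccl4, Ccl5, Ccl7, Ccl24, Ccr7, Cxcl5, Cxcl16 and Cxcl17.

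Explants were first set against irises without graft, which asks what the graft and its bed add to iris. Of the 42 members, 31 passed the count filter in this comparison, and 6 were called higher in explants at an adjusted p under 0.05 and a fold change over 2 (log2 over 1). The 5 described here are the interferon-inducible ligands Cxcl9 and Cxcl10, the monocyte attractant Ccl2, the inflammatory CC ligand Ccl9 and the neutrophil attractant Cxcl5. None was called lower (0.316% of all genes were; 1 member was lower at an unadjusted p under 0.05). Over all 16764 genes tested, 6.47% were called in either direction and 6.16% were called higher, against 6 of 31 members (19.4%). The median log2 fold change of the 31 was 1.68 (0.0084 over all genes), and 27 of 31 were above 0 (51.3% of all genes). Of the 31, 16 had every explant above every iris, where 10.9% of all genes did, and 18 did not overlap in either direction (24.9% of all genes), 2 of them lower (13.9%). The members come from a table whose expression limit counts corrected explants and leaves out irises, a limit not set for all genes tested. Being higher in explants than in irises was therefore partly fixed by the choice of genes, and these shares are a description.

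Cxcl9 recruits activated T cells through Cxcr3 and is a standard readout of interferon gamma. Its level was 27.8, 17.5, 2.43, 17.2 and 116 TPM in explants 1, 2, 4, 5 and 6, and 0.398, 0.213 and 0.402 TPM in the irises, which together held 5 counts. The groups did not overlap, but explants ranged widely, with explant 6 far above and explant 4 far below the rest. The log2 fold change was 6.80 (SE 1.65, adjusted p = 0.0275).

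Cxcl10, which shares the receptor Cxcr3, was at 15.5, 15.2, 12.1, 9.70 and 42.9 TPM in explants and at 0, 3.14 and 2.42 TPM in irises. All explants lay above all irises, and 4 of the 5 lay close together (log2 fold change 3.49, SE 0.82, adjusted p = 0.0240). Cxcl10 shares 5.91% of its exon bases with Art3 on the opposite strand, and counts were taken without regard to strand. Over the 16 samples Art3 had 1576 counts and Cxcl10 636. The receptor itself was not called: Cxcr3 ran from 0 to 6.08 TPM in explants and from 0.693 to 4.08 in irises, and the groups overlapped.

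Among the ligands of Ccr2, Ccl2 was at 42.6, 57.1, 36.4, 100.1 and 110.1 TPM in explants and at 10.02, 11.3 and 9.59 TPM in irises. The irises were nearly alike and the lowest explant was above all of them, and Ccl2 rose by a log2 fold change of 2.87 (SE 0.48, adjusted p = 0.00527), 7.31-fold. Ccl8, grouped here with Ccl2 although its own receptor was not examined, had the highest mean of all members in explants, 141 TPM ± 134 (SD, n = 5). It was at 62.8, 232, 24.8, 54.5 and 331 TPM there and at 16.4, 8.79 and 22.6 TPM in irises, without overlap. It was not called (log2 fold change 3.29, SE 0.98, adjusted p = 0.0583). Ccl7 (10.9, 50.5, 18.3, 16.04 and 47.8 TPM against 6.74, 10.4 and 5.30; adjusted p = 0.0664) and Ccl12 (35.5, 86.7, 53.6, 54.2 and 69.4 TPM against 34.6, 27.5 and 39.5; adjusted p = 0.0922) missed the threshold, as did Ccr2 (adjusted p = 0.0884), whose lowest explant, at 2.06 TPM, was below its irises.

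Of the inflammatory CC ligands, Ccl9 gave the smallest adjusted p of the members. Explants had 49.5, 85.0, 30.8, 71.0 and 133 TPM and irises 5.52, 3.79 and 5.58 TPM, a log2 fold change of 4.02 (SE 0.57, adjusted p = 0.00231). Ccl9 is also abundant in liver itself (145, 134 and 110 TPM), and explant 6 reached that level. For Ccl5, a T cell and monocyte attractant, and for Ccl6, the lowest explant lay inside the range of the irises. Ccl5 was at 26.6, 52.8, 2.03, 8.03 and 62.3 TPM against 3.13, 2.67 and 1.26 (adjusted p = 0.0605), and Ccl6, which acts through Ccr1, was at 32.4, 72.7, 17.7, 41.99 and 103 TPM against 24.4, 10.7 and 11.8 (adjusted p = 0.0734). Ccl3, Ccl4 and Ccr1 had adjusted p of 0.0858, 0.123 and 0.262.

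Neutrophil-attracting ligands were low in both groups. Cxcl5 was at 7.01, 5.77, 2.62, 3.68 and 5.13 TPM in explants and 0.322, 0.345 and 2.28 TPM in irises (log2 fold change 2.34, SE 0.61, adjusted p = 0.0372), with iris 3 close to the lowest explant. Cxcl1 was at 6.39, 12.01, 6.25, 24.7 and 17.6 TPM against 4.80, 2.40 and 4.85 and missed the threshold (adjusted p = 0.0600), although the groups did not overlap. Their receptor Cxcr2 stayed at or under 2.248 TPM in all 8 samples. Ccl20, the ligand of Ccr6, had 68 counts over the 5 explants and 0 over the 3 irises, which makes it at least 10.9-fold higher (floor of 3 counts over the irises, counting error only), with an adjusted p of 0.0512.

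**Figure D2:**
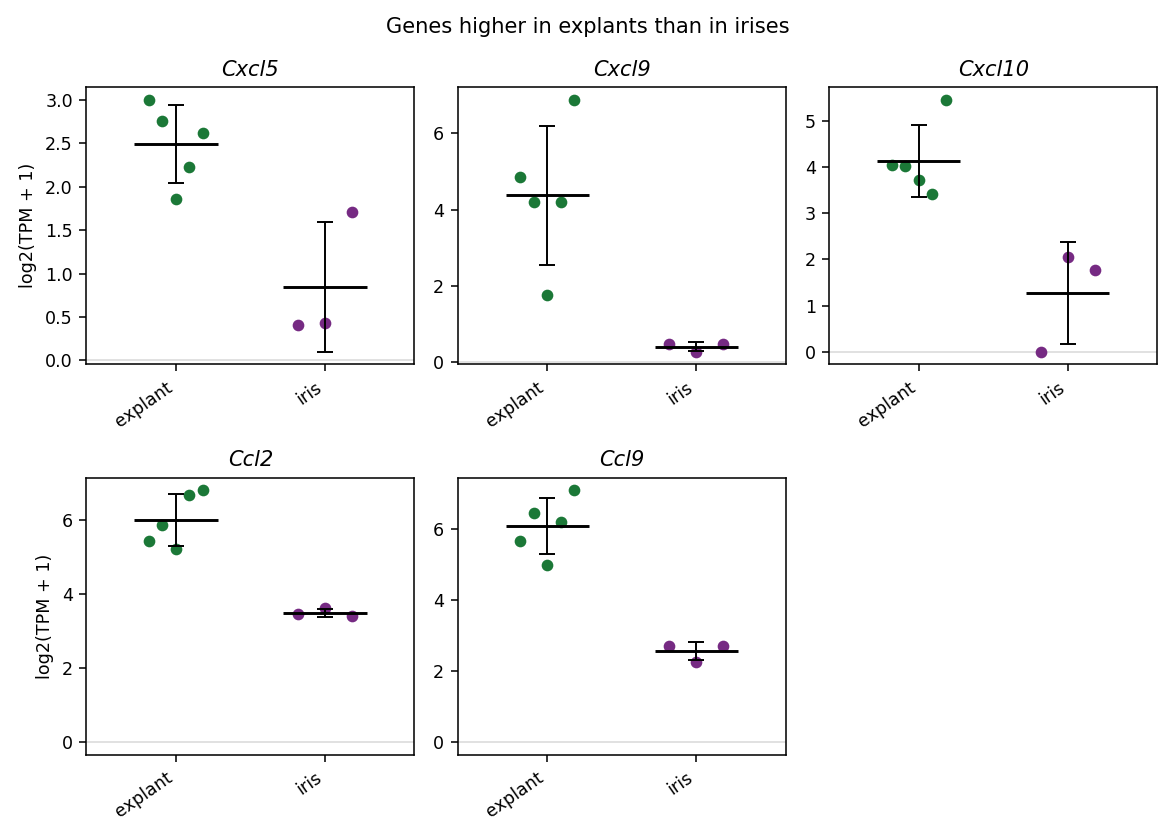
Levels of 5 called genes as log2(TPM + 1) in the 5 explants (green, in order of replicate number from left to right) and 3 irises (purple); the bar is the mean and the whiskers are 1 SD. Explants lie above irises for each gene, and the SD of explants is widest for Cxcl9, whose explants run from 2.43 to 116 TPM.

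Members with high levels in iris itself behaved differently. Ackr3, the scavenging receptor of Cxcl12, was the highest member in iris at 173, 181 and 165 TPM, and it was at 124, 99.3, 135, 127 and 90.4 TPM in explants (log2 fold change -0.50, SE 0.09, adjusted p = 0.00933, inside the fold limit). Explants 2 and 6, with the lowest iris shares, had the lowest values, and all explants were below all irises. Cxcl12, a homeostatic ligand made by stroma, was at 86.2, 89.7, 90.2, 85.6 and 87.4 TPM in explants and at 95.7, 102 and 91.6 TPM in irises. The TPM did not overlap, yet the fitted log2 fold change was -0.03 (SE 0.07, adjusted p = 0.796).

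Cx3cl1 (fractalkine, a membrane-bound ligand) was at 68.0, 59.2, 68.8, 62.3 and 68.6 TPM in explants and 56.8, 50.9 and 50.5 TPM in irises, a small rise of 0.41 (SE 0.09, adjusted p = 0.0191) on the log2 scale, under the fold limit. Cxcl16, the ligand of Cxcr6, was at 93.3, 113, 76.1, 99.4 and 139 TPM against 63.2, 61.8 and 60.2 (log2 fold change 0.87, SE 0.21, adjusted p = 0.0285). Ackr4, a scavenger of Ccl19, Ccl21 and Ccl25, was at 29.4, 38.5, 29.6, 38.6 and 26.7 TPM against 26.1, 21.002 and 20.2 (log2 fold change 0.64, SE 0.16, adjusted p = 0.0300). For these 3 genes explants were above irises without overlap, by less than the fold limit.

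Cxcl14 (33.7, 72.4, 34.3, 67.4 and 102 TPM against 30.6, 14.4 and 28.9; adjusted p = 0.0672), Cx3cr1, the fractalkine receptor of monocytes and microglia (15.3, 25.02, 9.65, 16.02 and 36.9 TPM against 9.30, 6.52 and 7.94; adjusted p = 0.0606), and Cxcr6, a receptor of tissue-resident T cells (6.33, 35.1, 2.58, 5.20 and 32.3 TPM against 2.22, 2.03 and 0.320; adjusted p = 0.0704), were not called, also without overlap. Explants 2 and 6 were the 2 highest for all 3 genes. Ccl19, Ccl25 and Ccl27a had adjusted p of 0.666, 0.474 and 0.565, and Cxcr4 of 0.136.

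The explants were not equal to each other. Explant 6 was the highest of the 5 for 19 members and explant 2 for 10, while explant 4 was the lowest for 26. Markers of macrophages and monocytes (10 genes, among them Ccr2, which is also a member) gave a similar order: they summed to 1528 and 1364 TPM in explants 6 and 2, to 926 and 789 in explants 5 and 1, and to 685 in explant 4, against 454 to 504 in irises. T cell markers (7 genes) summed to 155 and 130 TPM in explants 6 and 2 and to 23.6 to 45.4 in the others, against 12.02 to 17.6 in irises. Of the macrophage and monocyte markers tested, 5 of 9 were called higher in explants (Adgre1, Lyz2, Cd14, Fcgr1 and Itgam), and of the T cell markers 1 of 6 (Cd4). Neutrophil markers (8 genes) summed to 4.17 to 17.6 TPM against 2.52 to 4.05. Ly6g was at 0 counts in all explants and irises, and the 1 neutrophil marker tested, Csf3r, was called higher in explants. Kupffer cell markers (5 genes) summed to 3.97 to 62.8 TPM in explants and 0.952 to 2.38 in irises, against 204 to 371 in livers. The 1 of them tested, Cd5l, was called higher in explants than in irises. Clec4f, which defines Kupffer cells, was at 0.661, 3.93, 0.395, 0.173 and 2.32 TPM in explants against 31.3, 101 and 123 TPM in livers. All these TPM are before iris correction. Explants 6, 2 and 5 also had the lowest iris shares, 59%, 68% and 72%, against 81% in explant 4 and 82% in explant 1. The part of the iris share and of these cell types in the chemokine levels was not tested.

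**Figure D3:**
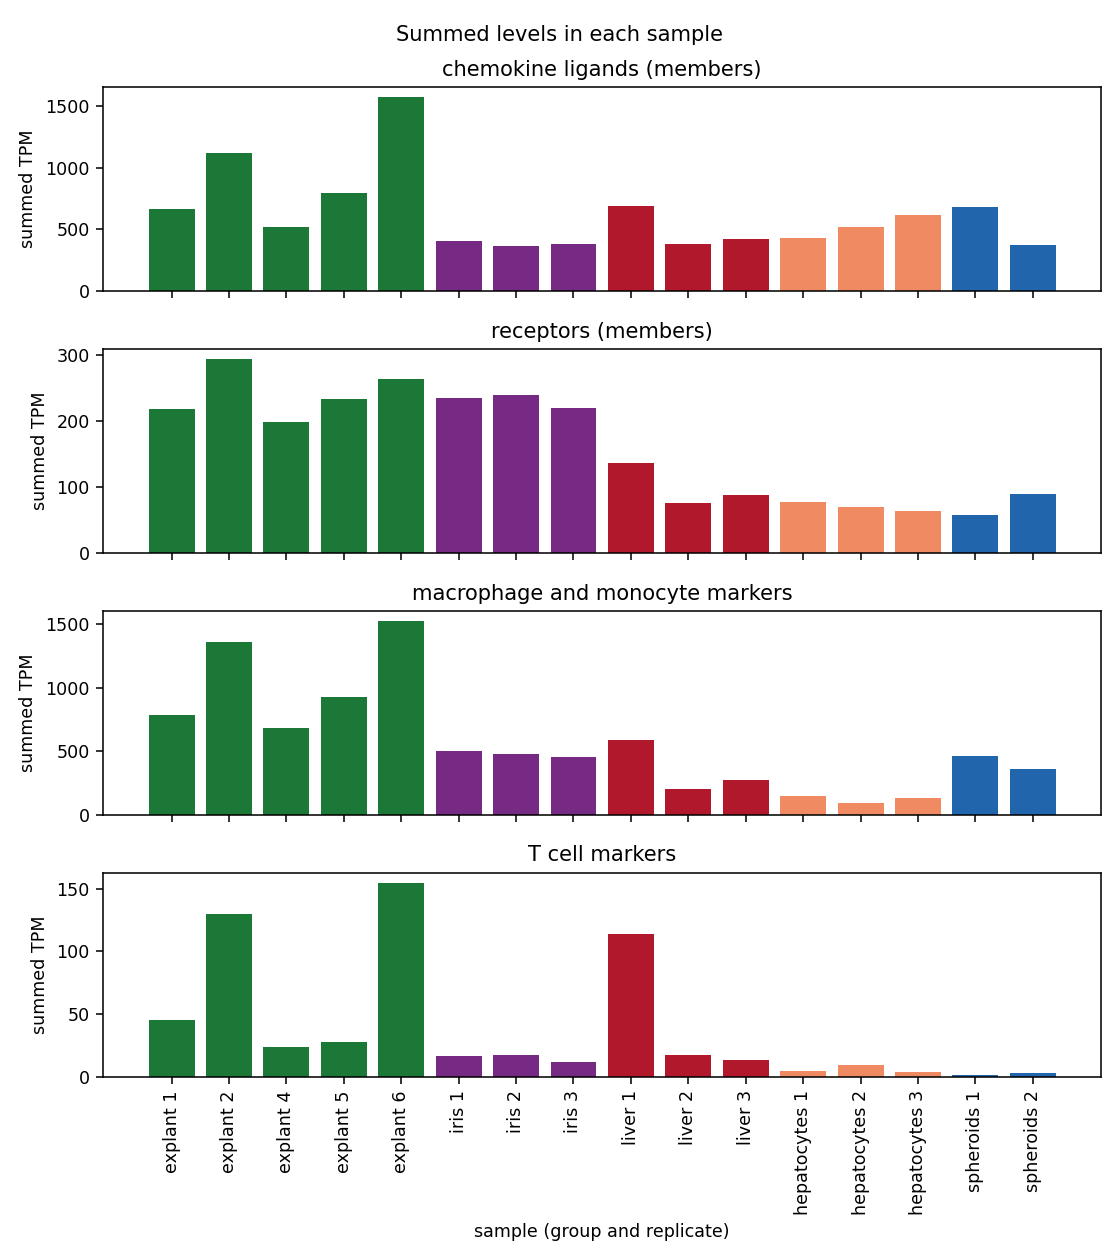
TPM summed in each of the 16 samples (bars from 0, colored by group) over the 28 ligands, the 14 receptors, 10 macrophage and monocyte markers and 7 T cell markers, before iris correction. Explants 2 and 6 have the tallest bars for ligands and for macrophage markers, and explants 2 and 6 and liver 1 stand above the other samples for T cell markers.

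The call depended on single samples. Leaving out explant 4 gave 16 called members, leaving out iris 1 or iris 2 gave 2 and iris 3 gave 3. With limma-voom 0 passed (13 were higher and 1 lower at an unadjusted p under 0.05). Calls over all genes moved too, from 1085 to 1259 without explant 4. They were 583, 630 and 603 without iris 1, 2 or 3, and 583 with limma-voom. Ccl2 and Ccl9 remained called whichever sample was left out. Among genes that induce chemokines, 5 of 19 inducing cytokines and receptors were called higher in explants (Il1b, Il1rn, Il1rap, Il4ra and Osmr; median log2 fold change 0.62), 4 of 14 interferon pathway genes (among them Irf7, Gbp2 and Gbp3; median 0.76), 0 of 24 of the NF-kB pathway in edgeR (15 higher at an unadjusted p under 0.05; median 0.40) and 2 of 27 of signaling downstream of the receptors (among them Pik3r5; median 0.36), and none of these lists held a gene called lower. Ifng, the cytokine itself, had counts in explants 2 and 6 only among explants, at 1.27 and 3.17 TPM, and none in irises.

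The second comparison asks what isolation of hepatocytes from liver changed, before any spheroid was formed. Of 14 members tested, Cxcl1 rose and Cxcl16 fell, while 2.72% of all 12236 genes were called, 0.409% higher and 2.31% lower. The groups did not overlap for 6 of the 14 (31.2% of all genes), of which 2 were higher (7.35%) and 4 lower (23.8%), and 5 had a log2 fold change above 0 (50.9% of all genes). Cxcl1, the mouse ligand that draws neutrophils through Cxcr2, was at 15.98, 21.02 and 16.2 TPM in livers and at 154, 296 and 360 TPM in hepatocyte preparations. No preparation came near the livers, and the log2 fold change was 4.07 (SE 0.35, adjusted p = 0.00399), 16.8-fold. With a mean of 270 TPM ± 105 (SD, n = 3), Cxcl1 was the highest member in any of the 5 groups, and it was called in all 16 alternative fits.

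Cxcl16 was at 55.3, 22.1 and 35.1 TPM in livers and 14.1, 5.52 and 5.36 TPM in hepatocytes (log2 fold change -2.002, SE 0.43, adjusted p = 0.0462). The groups did not overlap, but the call was lost on leaving out liver 1, 2 or 3 or hepatocytes 2 or 3. Cxcl12 was at 157, 115 and 157 TPM against 83.2, 54.3 and 74.9, also without overlap (log2 fold change -0.87, SE 0.19, adjusted p = 0.0475, inside the fold limit). Liver Ccl5 rested on 1 sample, with 115 TPM in liver 1 against 13.9 and 11.7 in the others, and hepatocytes had 5.11, 1.66 and 0 TPM (adjusted p = 0.0840). Without liver 1, Cxcl1 was the only member called, at a log2 fold change of 3.97.

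Ccl9 was high in both groups, at 122, 63.2 and 118 TPM in hepatocytes and 145, 134 and 110 in livers (log2 fold change -0.22, SE 0.25, adjusted p = 0.619). Ackr4 was at 67.7, 59.4 and 50.0 TPM against 53.8, 51.7 and 63.5 (adjusted p = 0.400), and Ccl25, the ligand of Ccr9, at 13.9, 21.1 and 15.2 TPM against 11.5, 9.23 and 12.4 (adjusted p = 0.120). Ackr4 shares 9.06% of its exon bases with Acad11 on the opposite strand, and with counts taken without regard to strand, reads of that stretch cannot be told apart; Acad11 had 23131 counts over the 16 samples and Ackr4 5723. The median log2 fold change of the 14 tested members was -0.32 (0.0092 over all genes).

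The remaining 28 members had too few counts for this test. In hepatocyte preparations Cxcl5, Cxcl17, Ccl17, Ccl20, Ccl21a, Ccl22, Ccr1 and Ccr8 were at 0 TPM in all 3 samples. Macrophage and monocyte markers summed to 88.6 to 144 TPM in hepatocytes and 206 to 589 in livers, Kupffer cell markers to 101 to 200 against 204 to 371, and stellate cell and fibroblast markers to 114 to 162 against 420 to 1162. Of the first 2 lists, no tested marker was called in edgeR (4 of 6 and 2 of 5 were lower at an unadjusted p under 0.05), and of the last, 4 of 8 were called lower (Reln, Des, Dcn and Dpt). The part of these cells in the chemokine levels was not tested. Of 17 inducing cytokine genes 1 was called, Csf1, and of 21 NF-kB pathway genes 1, Vcam1, both lower.

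Spheroids were then compared with the hepatocyte preparations, which asks what forming and keeping spheroids in vitro changed. Of 14 members tested, 7 were called, against 17.2% of 12247 genes. Ccl2, Ccl6 and Cxcl16 rose (8.13% of all genes were called higher) and Cxcl1, Cxcl9, Cxcl12 and Ackr2 fell (9.11% called lower). The groups did not overlap for 9 of the 14 (60.0% of all genes), of which 5 were higher (44.2%) and 4 lower (15.8%), and 5 had a log2 fold change above 0 (50.4% of all genes). The median over the 14 was -0.28 (0.0073 over all genes). Scaling by library size alone moved the median of all genes by 0.26 and raised the share of calls that were higher from 47.2% to 65.5%, with 3 members higher and 4 lower as before.

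Ccl2 was at 248 and 36.8 TPM in the spheroids and at 4.92, 4.19 and 1.58 TPM in hepatocytes (log2 fold change 4.85, SE 0.78, adjusted p = 0.00448). Both spheroid samples were above all preparations, but they differed from each other, and the log2 fold change was 3.10 without spheroids 1 and 5.60 without spheroids 2. Other ligands differed between spheroids 1 and 2 in either direction. Ccl7 was at 29.4 and 9.04 TPM, Ccl20 at 6.95 and 0, Cxcl5 at 8.16 and 0, and Cxcl17 at 8.99 and 0, whereas Ccl3 was at 11.9 and 13.7 TPM, Ccl4 at 3.46 and 8.54, Ccl5 at 1.58 and 1.68, and Ccl9 at 74.9 and 101. Ccl6 was at 50.0 and 66.4 TPM against 12.9, 7.97 and 8.52 (log2 fold change 2.24, SE 0.31, adjusted p = 0.00254). Cxcl16 was at 64.4 and 21.05 TPM against 14.1, 5.52 and 5.36 (log2 fold change 1.96, SE 0.51, adjusted p = 0.0269), and the call was lost without spheroids 1 or without hepatocytes 2 or 3.

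Of the genes that fell, Cxcl1 was at 92.0 and 46.4 TPM, above the 15.98 to 21.02 of livers, a log2 fold change of -2.33 against hepatocytes (SE 0.42, adjusted p = 0.00679). Cxcl12 was at 31.99 and 32.9 TPM in spheroids, below every other sample (log2 fold change -1.45, SE 0.23, adjusted p = 0.00440). Cxcl9 was at 0.252 and 0.801 TPM, 4 counts in all, against 7.20, 16.6 and 5.66 TPM (log2 fold change -4.46, SE 0.77, adjusted p = 0.00602). Cxcl10, at 4.73 and 2.50 TPM against 3.11, 20.1 and 8.78, was not called (adjusted p = 0.109). Ackr2, a decoy receptor for inflammatory CC ligands, was at 1.37 and 0.289 TPM against 3.77, 3.14 and 4.20 (log2 fold change -2.44, SE 0.62, adjusted p = 0.0251), on 6 counts in spheroids, and was not called without spheroids 2 or without hepatocytes 3.

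Ccl9 (74.9 and 101 TPM, adjusted p = 0.280), Ackr4 (47.02 and 81.6 TPM, adjusted p = 0.685) and Ccl25 (23.1 and 17.2 TPM, adjusted p = 0.870) were not called. Receptors of lymphocytes had no reads, with Cxcr3, Cxcr6, Ccr7 and Ccr8 at 0 counts in both spheroid samples. B cell markers summed to 0.427 and 0.526 TPM and T cell markers to 0.972 and 3.14, against 13.3 to 44.4 and 3.84 to 9.22 in hepatocytes. Kupffer cell markers instead summed to 511 and 469 TPM against 101 to 200, with 2 of 5 called higher (Vsig4 and Cd5l), and 3 of 7 macrophage and monocyte markers were called higher (Cd68, Lyz2 and Cd14). Their part in the levels of Ccl2, Ccl6 and Cxcl16 was not tested.

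Of the NF-kB pathway 8 of 24 genes were called higher and 0 lower (Nfkb2, Relb, Tnfaip3, Ikbkg, Irak3, Tlr2, Icam1 and Vcam1; median log2 fold change 0.38), and of the interferon pathway genes 0 of 13 were higher and 6 lower (among them Irf7, Gbp3, Ifit1, Ifit3 and Isg15; median -0.999). Among inducing cytokines and receptors 3 of 18 were higher (Ifngr1, Ifngr2 and Osmr) and 3 lower (Il1b, Il1rap and Il18), and of signaling genes downstream of the receptors 6 of 19 were higher (Gng2, Arrb2, Elmo1, Vav1, Rgs1 and Rgs2).

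**Figure D4:**
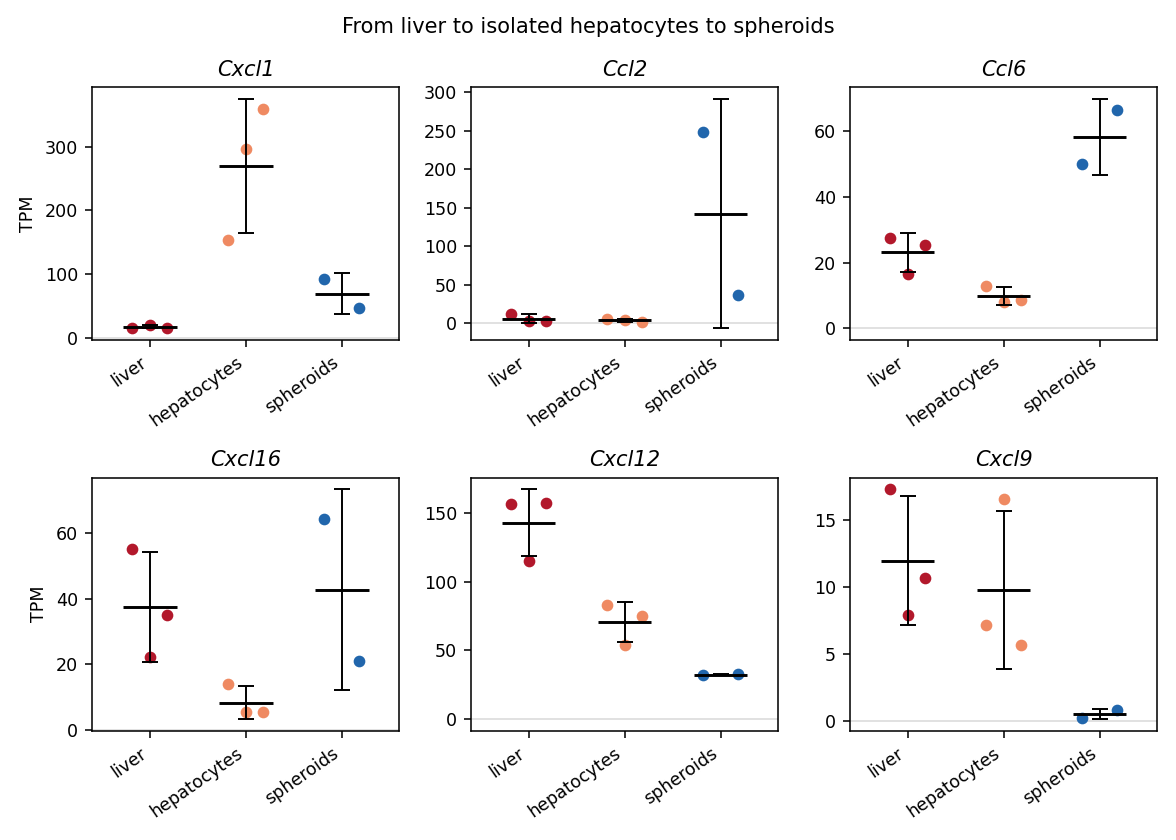
TPM of Cxcl1, Ccl2, Ccl6, Cxcl16, Cxcl12 and Cxcl9 in livers (red), hepatocyte preparations (orange) and spheroids (blue), points in order of replicate number; the bar is the mean and the whiskers are 1 SD, which for spheroids rests on 2 samples. Cxcl1 is highest in hepatocytes (154 to 360 TPM), Ccl2 and Ccl6 are highest in spheroids, and Cxcl12 is lower in each group than in the one before it.

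To compare the grafts themselves with liver and with spheroids, the iris contribution was subtracted from the TPM of each explant by the formula of the methods, and differences were tested on the log2(TPM + 1) scale, which understates changes of low genes. Both comparisons use the same 5 explants and the same iris mean, and are given side by side without further comparison. All 42 members were tested, but the limit of the corrected table counts explants, and 9 members average below 1 TPM over the 8 other samples (Cxcr2, Ccr1, Ccr2, Ccr7, Ccr8, Ccl17, Ccl20, Ccl21a and Ccl22). These entered through explants, so that being higher there was partly fixed by the choice of genes, and the counts below are a description. Against liver, 14 were called higher and 1 lower, 15 in all (35.7%), where 15.3% of 20656 genes were called (12.1% higher, 3.18% lower). Groups did not overlap for 15 (29.2% of all genes), 14 higher (20.1%) and 1 lower (9.11%), and 33 differences were above 0 (65.7% of all genes). Against spheroids, 12 were called higher (28.6%) and 0 lower, none of the latter at an unadjusted p under 0.05 either, where 6.25% of 20601 genes were called (5.16% higher, 1.09% lower). Groups did not overlap for 20 (27.5% of all genes), 19 of them higher (17.5%), and 36 differences were above 0 (63.3% of all genes). The median difference was 1.90 against liver and 2.01 against spheroids, and over all genes it was also above 0, at 0.57 and 0.47. Among the 33 members that reach 1 TPM without explants, 12 were called higher and 1 lower against liver (12.5% and 4.21% of 15566 genes) and 12 higher and 0 lower against spheroids (5.26% and 1.44% of 15511 genes).

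Ccl2, Ccl7, Ccl8 and Ccl12, grouped here as monocyte-attracting ligands, gave the 4 largest differences against liver. Ccl8 also gave the largest against spheroids. Corrected Ccl8 was at 277, 692, 62.8, 154 and 785 TPM in explants 1, 2, 4, 5 and 6, against 10.9, 2.76 and 5.16 TPM in livers (difference 5.39, SE 0.82, adjusted p = 0.00391) and 1.49 and 0 TPM in spheroids (7.43, SE 0.98, adjusted p = 0.00617). Corrected Ccl12 was at 42.7, 199, 138, 107 and 121 TPM, against 0, 1.31 and 3.68 in livers (5.63, SE 0.62, adjusted p = 0.00108) and 1.42 and 1.499 in spheroids (5.48, SE 0.58, adjusted p = 0.00272). For both genes every explant was above every liver and spheroid sample.

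Corrected Ccl2, at 190, 157, 148, 331 and 254 TPM, was higher than in livers, which had 12.2, 2.47 and 2.90 TPM (5.20, SE 0.49, adjusted p = 0.000653). The 2 spheroid samples were at 248 and 36.8 TPM, with explants 5 and 6 above both and explants 1, 2 and 4 between them, and Ccl2 was not called against spheroids (1.09, SE 0.67, adjusted p = 0.423). Corrected Ccl7 was at 26.3, 142, 64.3, 38.04 and 106 TPM against 2.61, 0 and 1.65 in livers (4.91, SE 0.66, adjusted p = 0.00249), and likewise was not called against spheroids.

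Fractalkine and its receptor were higher in both comparisons. Corrected Cx3cl1 was at 137, 72.9, 137, 86.7 and 91.4 TPM against 7.70, 2.09 and 0.533 in livers (4.89, SE 0.54, adjusted p = 0.00116) and 0.615 and 0.434 in spheroids (6.08, SE 0.42, adjusted p = 0.00054). Corrected Cx3cr1 was at 48.8, 61.4, 17.02, 36.9 and 78.7 TPM, against 7.45, 1.88 and 0.705 in livers (3.67, SE 0.65, adjusted p = 0.00690) and 0.406 and 0.645 in spheroids (4.86, SE 0.65, adjusted p = 0.00634). Cx3cl1 is itself a gene of iris, at 50.5 to 56.8 TPM there, and the 2 explants with the largest iris shares had its highest corrected values.

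Cxcl14, a homeostatic epithelial and stromal ligand, was at 75.1, 174, 75.2, 177 and 214 TPM after correction, against 6.11, 3.48 and 5.06 in livers (4.50, SE 0.44, adjusted p = 0.000747) and 1.67 and 2.65 in spheroids (5.39, SE 0.53, adjusted p = 0.00206). Corrected Cxcl16 was at 237, 222, 137, 196 and 250 TPM (2.51, SE 0.33, adjusted p = 0.00230 against liver; 2.43, SE 0.44, adjusted p = 0.0193 against spheroids). It shares 18.3% of its exon bases with Zmynd15 on the opposite strand. Corrected Cxcr6 was at 28.2, 107, 7.07, 14.7 and 76.7 TPM and listed at 0 in both spheroid samples (4.98, SE 1.04, adjusted p = 0.0304). That call was lost on leaving out explant 1, 2, 5 or 6, and with the deposited columns. Corrected Cxcr6 overlapped with the livers, of which liver 1 had 25.03 TPM and the others 1.49 and 1.39.

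Cxcl12 was the member called lower than in liver: corrected values were 39.5, 75.4, 63.4, 57.8 and 74.4 TPM against 157, 115 and 157 (-1.21, SE 0.28, adjusted p = 0.0191). The call was lost on leaving out any 1 liver, with the deposited corrected columns, with iris shares 0.1 lower or higher, and without correction, when explants stood at 85.6 to 90.2 TPM. Cxcl12 was not called against spheroids.

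The interferon-inducible ligands were again high. Corrected Cxcl10 was at 77.5, 43.6, 56.0, 29.9 and 102 TPM against 10.8, 6.56 and 2.93 in livers (3.03, SE 0.51, adjusted p = 0.00579) and 4.73 and 2.50 in spheroids (3.69, SE 0.56, adjusted p = 0.00948). Corrected Cxcl9 was at 153, 53.9, 11.3, 60.5 and 282 TPM. It was called against spheroids (5.56, SE 1.09, adjusted p = 0.0245), a call lost on leaving out explant 1, 2 or 5. It was not called against liver (2.52, SE 0.89, adjusted p = 0.0883), where liver 1 had 17.3 TPM and explant 4 less than that.

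Corrected Ccl9 was at 252, 255, 141, 241 and 318 TPM (1.41, SE 0.34, adjusted p = 0.0480 against spheroids; 0.86, SE 0.27, adjusted p = 0.0621 against liver). Without correction, explant Ccl9 lay below both, by -0.95 against liver and -0.40 against spheroids, so its direction rests on the subtraction. Corrected Ccl6 was at 109, 194, 26.3, 110 and 228 TPM (2.20, SE 0.64, adjusted p = 0.0472 against liver), with explant 4 inside the range of the livers. The Ccl6 call held in 5 of 17 alternative fits, and in 1 of the 8 that left out a sample. It was lost with the deposited columns and before correction.

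Less abundant ligands were called against 1 group each. Corrected Cxcl5 (34.5, 15.9, 9.60, 10.6 and 11.1 TPM; 3.12, SE 0.60, adjusted p = 0.00985), Ccl20 (31.9, 5.63, 1.81, 30.1 and 15.6 TPM; 3.46, SE 0.86, adjusted p = 0.0267) and Ccl17, the Ccr4 ligand of dendritic cells (20.3, 14.4, 1.43, 12.7 and 24.4 TPM; 3.20, SE 0.82, adjusted p = 0.0293), were higher than in liver, where none of the 3 passed 2.24 TPM. On leaving out 1 sample, the call held in 6 of 8 fits for Cxcl5, 4 of 8 for Ccl20 and 2 of 8 for Ccl17. Ccl17 and Ccl20 are 2 of the 9 members that entered through explants. Ccl19, which guides cells with Ccr7, was at 31.1, 20.8, 5.49, 11.6 and 26.3 TPM after correction against 0.877 and 0 TPM in spheroids (3.66, SE 0.79, adjusted p = 0.0344), but liver 1, at 24.9 TPM, was within its range. The Ccl19 call was lost on leaving out explant 1, 2, 5 or 6, and with the deposited columns. Reads of Ccl19, Ccl21a and Ccl27a can be split with near-identical copies of these genes, which makes their levels uncertain.

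**Figure D5:**
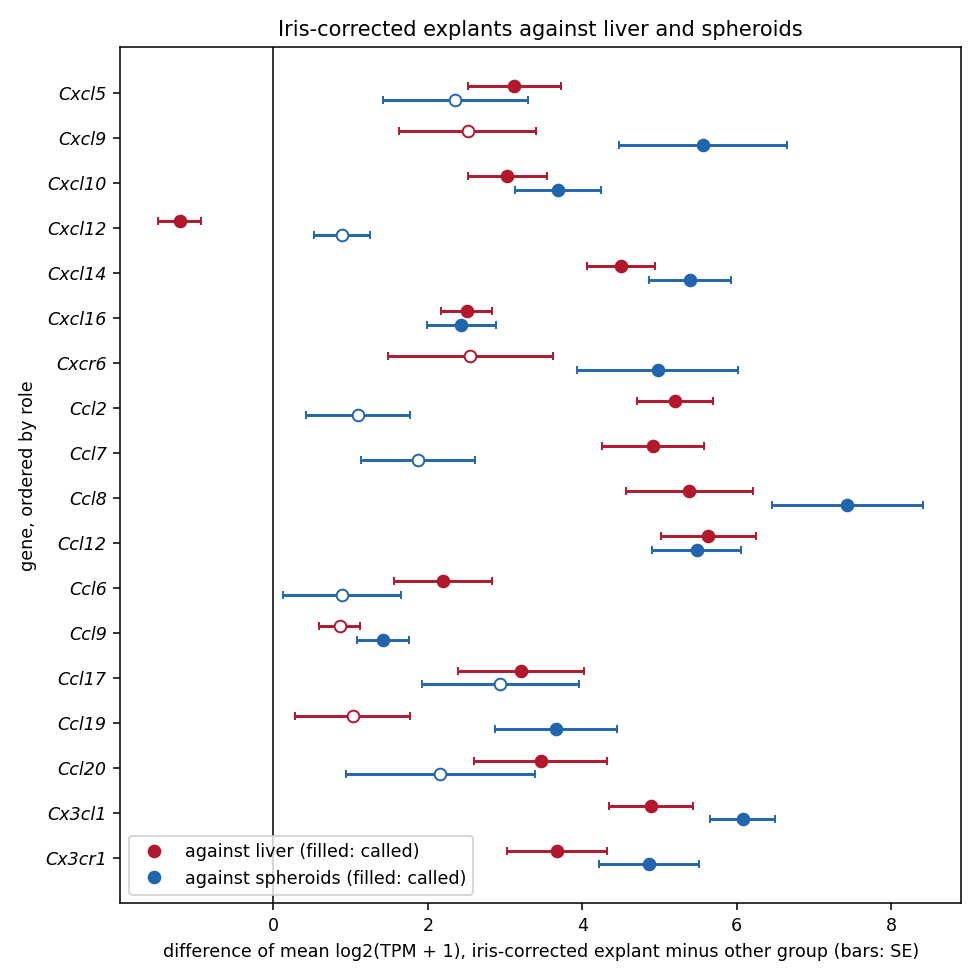
Difference of mean log2(TPM + 1) between iris-corrected explants and livers (red) or spheroids (blue) for 18 genes called in at least 1 of the comparisons; whiskers are SE and filled points are called. All points but that of Cxcl12 against liver (-1.21) lie right of 0, and Ccl8 against spheroids (7.43) is farthest to the right.

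At the other end, correction removed Ackr3 almost entirely: it was listed at 0 in explants 1, 2, 4 and 6 and at 6.68 TPM in explant 5, although it had been at 90.4 to 135 TPM before. Ackr4 was kept at 61.4, 72.7, 60.3, 80.0 and 32.8 TPM, near the 51.7 to 63.5 of livers. Cxcl1 was at 17.2, 28.98, 15.7, 77.8 and 37.1 TPM after correction, Ccl5 at 137, 160, 0.663, 22.6 and 148, and Ccl25 at 7.78, 3.70, 0, 10.7 and 0.887, and none of these 4 was called in either comparison. The 2 livers other than liver 1 had lower T cell markers, and without liver 1 the count against liver was 12, with Ccl4 called in addition. Over all genes, 1895 were called without liver 1 and 3152 with it. Against spheroids the count fell to 4 without spheroids 1 and to 3 without spheroids 2, with Cx3cl1, Ccl12 and Cxcl14 called each time.

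Corrected macrophage and monocyte markers were called higher for 7 of 10 genes against liver and 5 of 10 against spheroids, T cell markers for 1 of 7 (Cd4) and 2 of 7 (Cd3e and Cd4), and of the 5 Kupffer cell markers Clec4f was lower in both. Their part in the chemokine levels was not tested. Of the iris list, Pax6 was still called higher after correction in both comparisons. Of the inducing cytokines and receptors 10 of 21 were higher and 1 lower (Il1rap) than in liver and 4 and 0 than in spheroids, and of the interferon pathway genes 9 of 14 were higher and 0 lower in each. Of the NF-kB pathway, 13 of 24 were higher and 1 lower (Chuk) than in liver, and 4 and 0 than in spheroids.

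The members not described above were low everywhere. Cxcl2 reached 4.23 TPM (hepatocytes 2), Ccl22 3.74 TPM (explant 2), Ccr7 9.31 TPM (explant 2) and Ccr8 2.48 TPM (explant 6), and Ccr8 had counts in no sample outside the explants. Cxcl13, the B cell attractant, was highest in explant 6 (9.56 TPM) and spheroids 1 (8.59 TPM), Ccl24, an eosinophil attractant, in liver 3 (8.66 TPM), and Ackr1, a chemokine-binding receptor of venules, in iris 3 (9.93 TPM). Ackr1 shares 25.7% of its exon bases with Cadm3 on the same strand. Ccl27a held between 2.34 and 11.9 TPM and Ccl21a between 0 and 7.64 TPM over the 16 samples.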

How the data were processed

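Bulk Smart-seq3 libraries, 48 in all, were deposited as raw counts per gene for 16 samples with the 3 technical libraries of each, as TPM per sample, and as TPM of explants after iris correction. The authors made the counts with featureCounts (1.4.6-p5) on GENCODE M21 (GRCm38) without regard to strand, after removing duplicate reads, and that removal can compress abundant genes. The deposited TPM are the authors' length-scaled values, and the deposited corrected signal of explants is TPM from which the authors subtracted the iris mean times the iris share before dividing by the remaining share. The formula was applied anew to all explants because the column of explant 4 used another form. Technical libraries were summed. Counts were tested with edgeR 4.0.16 (quasi-likelihood, TMM, filterByExpr), and corrected TPM, on the log2(TPM + 1) scale computed from the deposited TPM, with limma 3.58.1 (R 4.3.3). Calls needed a log2 change over 1 and, after Benjamini-Hochberg adjustment across every gene tested, a p under 0.05. DESeq2 1.42.0, limma-voom and other filters, scalings and shares were alternatives, and each sample was left out in turn. Tests were checked on simulated counts with the same spread setting for every gene and without iris mixing or subtraction. That check covers neither the spread of these samples nor the iris correction. Values are given in full for members called in any comparison and for the 5 highest of each group. Comparisons share samples: explants enter 3, and livers, hepatocytes and spheroids 2 each. Members and lists were chosen with earlier results of these data known. Total counts of 2718518 to 6789648 per sample limit precision, and intervals and floors cover counting error only. Some genes are not reported here by name, although counts and medians include them.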

Additional observations from a re-analysis of the deposited data

Results flagged for a closer look

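In TPM before iris correction, explant 6 stood far from the other explants for 3 genes. Its Cxcl9 was at 116 TPM, where the next explant had 27.8 (gap of 0.776 of the whole range), its Cxcl10 at 42.9 TPM, next 15.5 (0.826), and its Ccr8 at 2.48 TPM, next 0.443 (0.822), each over the Dixon limit of 0.71 for 5 samples. Explant 6 also had the lowest iris share, 59%. After iris correction the gaps to the next explant were narrower for Cxcl9 and Cxcl10. Corrected Cxcl9 was at 282 TPM in explant 6 and 153 in explant 1, and corrected Cxcl10 at 102 and 77.5. Corrected Ccr8 was at 6.05 TPM in explant 6 and 1.38 in explant 2. The Dixon limit was applied only before correction. Chance alone marks about 1 in 20 such groups, and 42 genes were looked at, and no cause was tested.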

How the results depend on the processing

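Depth limits the low members, of which 11 of 42 in the comparison with iris and 28 in each comparison without explants were not tested. The count of members called moved as follows. Against iris (6) it was 18 with DESeq2, 3 with at least 10 counts in every sample and 0 with limma-voom. It was 15 with no filter, 10 with no fold limit, and 2 to 16 on leaving out 1 sample. Over all genes, calls there (1085 of 16764) were 1279 with DESeq2, 644 of 14453 with at least 10 counts and 583 with limma-voom. They were 1207 of 30884 with no filter, 1975 with no fold limit and 583 to 1259 on leaving out 1 sample. For hepatocytes against liver (2) it was 1 with at least 10 counts, 1 with limma-voom and 12 with no filter. It was 4 in a single fit of all groups, 1 with library a alone, and 1 to 2 on leaving out 1 sample. Over all genes, calls there (333 of 12236) were 169 of 10448, 20 and 1205 of 25664 in the first 3 of these settings. They were 1140 of 17064, 165 of 10135, and 8 to 448 in the others. For spheroids against hepatocytes (7) it was 4 with at least 10 counts, 13 with no filter and 5 to 8 on leaving out 1 hepatocyte preparation. Over all genes, calls there (2112 of 12247) were 1507 of 10281, 2763 of 24387, and 1599 to 1994. Corrected explants against liver (15) gave 10 to 20 on leaving out 1 sample. Over all genes, calls there (3152 of 20656) were 1174 to 4152. Against spheroids (12) the count was 8 to 16 on leaving out 1 explant, 20 before correction and 8 with the deposited columns. Over all genes, calls there (1288 of 20601) were 800 to 1487, 7635 of 20609, and 485 of 20687. Causes were not tested.

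Same-numbered samples deviated together weakly or not at all (correlations 0.045 and -0.11 for explants and irises, 0.11, 0.063 and -0.043 for hepatocytes and livers, 0.10 and 0.14 for spheroids and hepatocytes), and the numbers were not taken to pair samples. With the replicate number as a block, members called were 10 against iris, 3 for hepatocytes and 6 for spheroids (843, 408 and 1985 of all genes). In both corrected comparisons 0 members and no gene at all were called in limma. At an unadjusted p under 0.05, members were 15 higher and 2 lower against liver, and 24 and 2 against spheroids. Explants share only numbers 1 and 2 with irises, livers and spheroids, so the block left almost nothing to estimate the spread from. The absence of calls in the corrected fits was thus close to fixed by the design.

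Signs turned only for members that were not called, with 1 exception, Ccl9 against spheroids. Leaving out 1 sample gave Ccl9 -0.36 to 0.047 in hepatocytes against liver, and in spheroids against hepatocytes Ackr4 -0.78 to 0.26 and Ccl25 -0.18 to 0.15; library size alone gave Ackr4 0.050 and Ccl25 0.20. Corrected explants against liver before correction had Ackr3 4.68, Ackr4 -0.78, Ccl5 -0.55, Ccl9 -0.95 and Cxcl1 -0.55; with shares lowered by 0.1 Ackr3 0.78 and Ackr4 -0.20; with deposited columns Ackr4 -0.032; and without 1 sample Ackr4 -0.039 to 0.28. Against spheroids before correction Ackr3 was 5.16, Ccl2 -0.60, Ccl6 -0.35 and Ccl9 -0.40; with shares lowered by 0.1 Ackr3 1.25, and raised by 0.1 Ackr4 0.45 and Cxcl12 -0.63; with deposited columns Cxcl12 -0.32; with the block Ackr4 0.11; and without 1 sample Ackr4 -0.46 to 0.32 and Ccl2 -0.27 to 2.45.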
